A study of Mus musculus with 8 samples.

Results

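The genes described here are Sftpb, Sftpc, Abca3, Lamp3, Napsa, Slc34a2 and Lpcat1, which encode hydrophobic surfactant proteins and other proteins of the lamellar body or the type II cell. These 7 genes were chosen by name from the 25965 genes of the deposited table, and all 7 were found in it. Alveolar type II cells make pulmonary surfactant, a mixture of phospholipid and a few proteins that lowers surface tension at the air-liquid interface, and they hold it until secretion in lamellar bodies, lysosome-related organelles filled with stacked membrane. The store is built up late in gestation and released with the first breaths. Loss of SP-B or of the lipid transporter ABCA3 causes respiratory failure at birth in mice and in infants.

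Lung RNA from Wfdc2+/+ and Wfdc2GFP/GFP mice was sequenced before birth at E18.5 (E for embryonic day) and after birth at P1.5 (P for postnatal day), with 2 libraries (replicates 1 and 2) in each of the 4 groups. Wfdc2 encodes a secreted protein with protease inhibitor domains, and the study set null lungs beside control lungs at both stages. The Wfdc2GFP/GFP mice carry on both alleles a cassette of IRES and GFP in place of part of the first exon and the whole of the second exon. The allele was made in TT2 embryonic stem cells, its drug resistance marker was removed by crossing with CAG-Cre mice, and it is null in every cell and not only in the lung or in type II cells. RNA was taken from whole lung, so fewer type II cells, less RNA per type II cell and RNA from other cells cannot be told apart. The study names club cells as a source of SP-B too. The study calls the controls of both stages littermate controls. The titles number the libraries within a group, and no source used here says which libraries came from 1 litter, that equal numbers mark littermates, that each library is 1 animal, or which of the sequencers was used for which library.

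Each gene and library has a log2 RPKM, that is, reads per kilobase (here of the whole gene span) and scaled by the total reads of the library, on a log2 scale. The values step by whole reads, which gave library totals of 34429560 and 31169157 in E18.5 Wfdc2+/+ (replicate 1, then replicate 2), 37209333 and 29246203 for E18.5 Wfdc2GFP/GFP, 21714474 and 19457647 for P1.5 Wfdc2+/+, and 23163504 and 29257002 for P1.5 Wfdc2GFP/GFP. Each of the 7 genes had between 4727 and 1443891 reads in every library, so reads did not limit their precision and the number of libraries did. Wfdc2, the targeted gene, had 8038 and 8791 reads in E18.5 Wfdc2+/+, 0 and 1 in E18.5 Wfdc2GFP/GFP, 32845 and 10212 in P1.5 Wfdc2+/+, and 12 and 0 in P1.5 Wfdc2GFP/GFP, as the labels say. Replicate 1 of every group had between 4121 and 90980 reads of the X-inactivation RNA Xist, against 1 to 13 in replicate 2, while the Y-linked Ddx3y had 0 to 3 reads in replicate 1 and 972 to 2175 in replicate 2. The replicate number thus went with these sex-linked RNAs in all 4 groups, and each genotype and stage holds 1 library of either kind.

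A pair of libraries stood apart from their own group over the 15627 genes whose mean reached 0.05 RPKM. The median absolute difference between replicates was 0.14 on the log2 scale in E18.5 Wfdc2+/+ and 0.38 in P1.5 Wfdc2GFP/GFP, but 0.56 in E18.5 Wfdc2GFP/GFP and 0.80 in P1.5 Wfdc2+/+. Replicate 2 of P1.5 Wfdc2+/+ was nearer to an E18.5 library (0.30 to replicate 2 of E18.5 Wfdc2GFP/GFP) than to its own replicate 1, which differed by 0.46 from replicate 1 of P1.5 Wfdc2GFP/GFP. Replicate 1 of E18.5 Wfdc2GFP/GFP differed by 0.45 and 0.48 from the E18.5 Wfdc2+/+ libraries, more than these differed from each other. Genotype differences are given with all 8 libraries and then with the 6 that remain without them, and so are the calls for stage, a choice made after the values were seen. In the fit of 6 libraries, which has 2 residual degrees of freedom, E18.5 Wfdc2GFP/GFP and P1.5 Wfdc2+/+ have 1 library each, taken to vary like the other groups. The library left in E18.5 Wfdc2GFP/GFP is of the Ddx3y kind and that in P1.5 Wfdc2+/+ of the Xist kind. The sex-linked RNAs are therefore not balanced in the comparisons of that fit. Dropping the libraries most unlike their group narrows the spread by construction.

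Sftpc, which encodes the precursor of SP-C, stood far above the other genes of the set in every library. Per kilobase of exon its median over the 8 libraries was 26741 RPKM, against 894 RPKM for Sftpb (SP-B), 318 for Slc34a2 (a sodium-dependent phosphate transporter of the apical membrane), 283 for Napsa (napsin A, an aspartic protease that takes part in processing the surfactant proteins), 146 for Lpcat1 (an acyltransferase that remodels lysophosphatidylcholine), 92.1 for Lamp3 (the membrane glycoprotein DC-LAMP) and 61.8 for Abca3. Sftpc came first, Lamp3 next to last and Abca3 last in all 8 libraries. Napsa was the gene whose place moved most, since it stood below Sftpb and Slc34a2 in the E18.5 libraries, above both in replicate 1 of P1.5 Wfdc2+/+, and between them in both P1.5 Wfdc2GFP/GFP libraries. Sftpc alone was also the most abundant of all genes in 7 of the 8 libraries. In the remaining one, replicate 1 of E18.5 Wfdc2GFP/GFP, Eef1a1, an elongation factor gene, led with 0.698% of the reads and Sftpc had 0.644%.

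**Figure D1:**
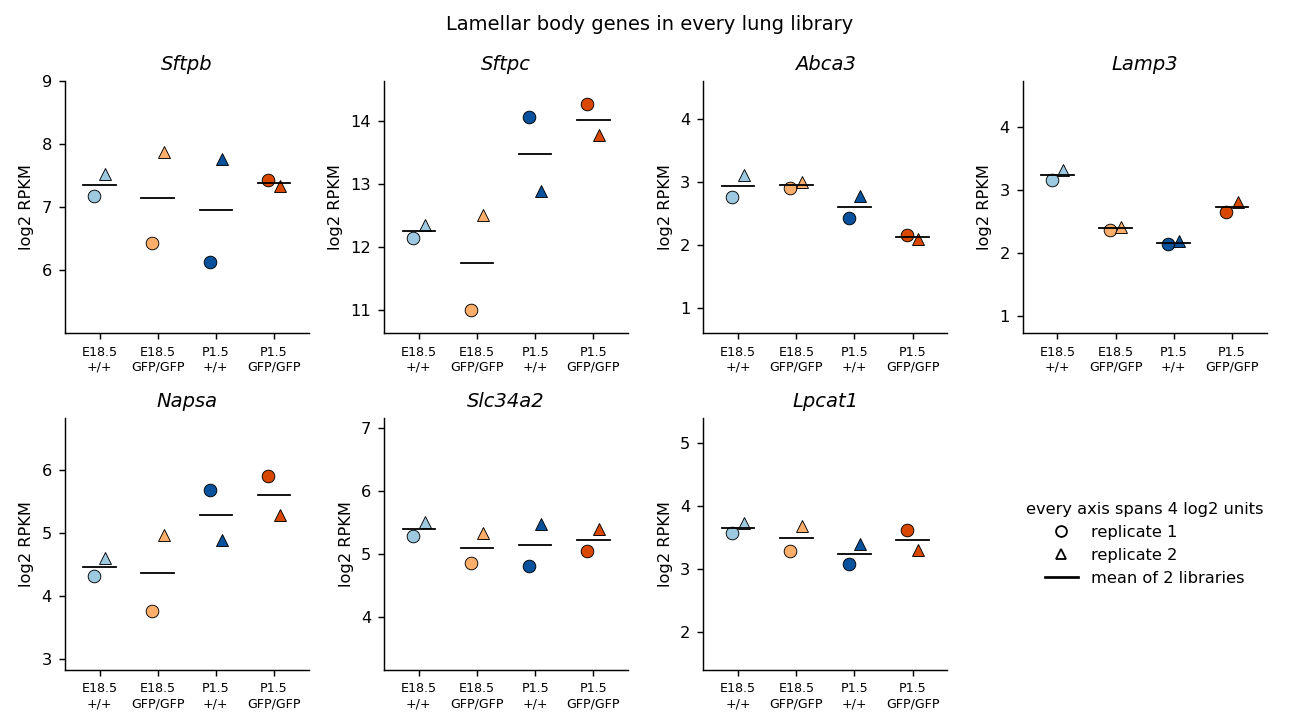
Each panel plots log2 RPKM (y axis) of 1 gene in the 4 groups (x axis), with replicate 1 as a circle, replicate 2 as a triangle and a line at the mean of the 2 libraries, on axes that all span the same log2 range. The replicates of Lamp3 lie close together in every group, whereas those of Sftpb and Sftpc are over 1 log2 unit apart in E18.5 Wfdc2GFP/GFP and in P1.5 Wfdc2+/+.

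The genes lie on 7 different chromosomes of mm10, Sftpb on chromosome 6 (72304625 to 72312932, plus strand), Sftpc on chromosome 14 (70520941 to 70524081, minus strand), Abca3 on chromosome 17 (24351950 to 24410201, plus strand) and Lamp3 on chromosome 16 (19653381 to 19706365, minus strand). Napsa lies on chromosome 7 (44572432 to 44586862, plus strand), Slc34a2 on chromosome 5 (53038082 to 53071664, plus strand) and Lpcat1 on chromosome 13 (73467197 to 73516422, plus strand), all coding for protein. Napsa and Slc34a2 overlap the antisense genes Gm15396 and Gm17182 in the table, and since the sources used here do not say whether reads were counted by strand, their reads could not be told apart from those of these partners. RefSeq promoters (GRCm38.p6, 250 bases before the start site and 50 after it) were at hand for 5 of the 7 genes, Sftpb, Abca3, Lamp3, Slc34a2 and Lpcat1. The 3 shown here belong to the pair Sftpb and Slc34a2, whose levels went up and down together across libraries, and to Lamp3, the one member whose genotype groups did not overlap at either stage and changed order between them. They are Sftpb at chr6:72304360-72304659 on the plus strand, Slc34a2 at chr5:53049103-53049402 on the plus strand, which falls inside the span of the deposited table, and Lamp3 at chr16:19706316-19706615 on the minus strand. Capitals mark the motifs that were found.
Sftpb: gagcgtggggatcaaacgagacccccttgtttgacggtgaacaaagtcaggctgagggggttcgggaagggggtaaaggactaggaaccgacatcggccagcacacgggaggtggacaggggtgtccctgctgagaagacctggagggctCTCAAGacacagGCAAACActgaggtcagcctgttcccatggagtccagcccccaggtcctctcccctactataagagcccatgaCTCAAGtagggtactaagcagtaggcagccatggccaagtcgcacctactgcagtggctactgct
Slc34a2: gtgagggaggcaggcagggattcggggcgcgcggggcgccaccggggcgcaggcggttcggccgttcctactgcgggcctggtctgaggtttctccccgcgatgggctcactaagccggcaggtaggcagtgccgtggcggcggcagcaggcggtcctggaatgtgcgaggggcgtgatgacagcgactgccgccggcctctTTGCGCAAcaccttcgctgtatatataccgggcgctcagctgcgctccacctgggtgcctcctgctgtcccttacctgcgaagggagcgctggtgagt
Lamp3: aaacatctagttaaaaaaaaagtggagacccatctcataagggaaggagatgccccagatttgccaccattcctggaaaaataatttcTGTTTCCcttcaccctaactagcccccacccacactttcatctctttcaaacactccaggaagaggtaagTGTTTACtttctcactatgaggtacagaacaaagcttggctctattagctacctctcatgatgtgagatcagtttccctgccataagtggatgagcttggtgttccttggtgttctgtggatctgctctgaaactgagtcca

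The motifs, searched on both strands, were CTCAAG and TCAAGTG for NKX2-1, TGTTTNC for FOXA proteins, TTGCNNAA for C/EBP proteins and GNACA and TGTNC with 3 bases between them for the glucocorticoid receptor, all of them regulators of the type II cell. The first 2 share the bases TCAAG and can overlap. The Sftpb window held CTCAAG with its first base at -100 and at -15 from the start site, and GCAAACA, the reverse complement of TGTTTNC, at -88. The Lamp3 window held TGTTTCC at -162 and TGTTTAC at -92, both matches to the FOXA motif on the strand of the gene. The Slc34a2 window held TTGCGCAA at -48, which reads the same on both strands. None of the motifs was found in the windows of Abca3 and Lpcat1. Of 32851 promoters of this length, 15.9% held CTCAAG, 3.06% TCAAGTG, 20.5% TGTTTNC, 10.8% TTGCNNAA and 0.475% the glucocorticoid receptor motif. GC content was 58.3% in the Sftpb window, 68.7% in that of Slc34a2 and 43.7% in that of Lamp3, beside a median of 52.7% for all promoters.

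The question after birth was whether lungs without Wfdc2 differed in these genes. None of the 7 genes passed the test of genotype at P1.5 (limma's moderated test, adjusted p under 0.05), where 2 of 15627 genes did (0.0128%). With voom on the recovered reads no gene at all passed, not even Wfdc2, so voom says nothing particular about the members. No member passed at an unadjusted p under 0.05 in limma, which 10.9% of the genes tested reached. The mean was higher in Wfdc2GFP/GFP for 6 of the 7 genes, as for 38.8% of the genes tested, and the median log2 fold change was 0.31 against -0.20 for all genes tested. Centred on the pan-epithelial genes, whose mean differed between libraries, 2 of the 7 (Sftpc and Lamp3) were higher, and with 6 libraries 4 of the 7. Both libraries of one genotype lay above both of the other for Lamp3 (higher in Wfdc2GFP/GFP, as for 12.6% of the genes tested) and for Abca3 (lower, as for 26.9%). With 2 libraries against 2 an exact two-sided permutation test cannot go below p = 0.33, and no permutation p is given. The p-values of limma measure the spread between these libraries.

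Sftpb, whose product SP-B is needed to pack lamellar body membranes, measured 6.14 and 7.76 log2 RPKM in replicates 1 and 2 of P1.5 Wfdc2+/+ and 7.43 and 7.34 in P1.5 Wfdc2GFP/GFP. Both knockout values fell between the control values, so the spread of the controls covered the difference of 0.44 ± 0.63 (log2 fold change ± SE, adjusted p = 0.806). Sftpc measured 14.06 and 12.90 log2 RPKM in the controls and 14.28 and 13.78 in the knockouts. The lowest of the 4 was replicate 2 of the controls, the library that resembled E18.5, and the groups overlapped (0.55 ± 0.75, adjusted p = 0.795). Napsa followed the same order of libraries, with 5.69 and 4.89 in the controls and 5.91 and 5.30 in the knockouts (0.31 ± 0.48, adjusted p = 0.820).

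Abca3, which moves phospholipid into the lamellar body, measured 2.44 and 2.79 log2 RPKM in the P1.5 controls and 2.16 and 2.11 in the P1.5 knockouts. The knockouts were the lowest of all 8 libraries for this gene, but the difference of -0.48 ± 0.29 did not pass the test (adjusted p = 0.590, 95% interval -1.14 to 0.18). Lamp3, whose product sits in the limiting membrane of the lamellar body, measured 2.14 and 2.20 in the controls and 2.66 and 2.82 in the knockouts. The knockouts were higher with no overlap, by 0.57 ± 0.26, with an unadjusted p of 0.0627 and an adjusted p of 0.482 (95% interval -0.04 to 1.18). Over the alternatives it lay between 0.053 and 0.77, the lowest with the libraries centred on the pan-epithelial genes. Slc34a2 measured 4.81 and 5.47 in the controls and 5.05 and 5.39 in the knockouts, and Lpcat1 measured 3.07 and 3.39 against 3.61 and 3.29. For both genes the groups overlapped, with differences of 0.08 ± 0.35 (adjusted p = 0.941) and 0.22 ± 0.30 (adjusted p = 0.790).

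Between libraries of the same number, which also match in their sex-linked RNAs, the genotype difference at P1.5 had 1 sign in both numbers for 4 of the 7 genes. Lamp3 was higher in the knockout by 0.51 in replicate 1 and 0.63 in replicate 2, and Abca3 was lower by -0.28 and -0.68 (log2 difference). Sftpc was higher by 0.21 and 0.88, and Napsa by 0.22 and 0.41. The difference of Sftpb turned from 1.29 in replicate 1 to -0.42 in replicate 2. In the fit of 6 libraries Sftpb was 1.25 higher in the knockout (adjusted p = 0.0436) and was the only one of the 7 genes called, while 678 genes (4.34%) were called in all. Lamp3 (0.60), Slc34a2 (0.41) and Lpcat1 (0.39) were higher too, Abca3 was at -0.30, and the differences of Sftpc and Napsa changed sign, to -0.035 and -0.088. That control group is 1 library, replicate 1, whose Sftpb was the lowest of all 8.

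The comparison before birth asked whether a difference was already present at E18.5. None of the 7 genes passed there either, beside 3 of 15627 genes (0.0192%), and with voom no gene at all passed. The mean was lower in Wfdc2GFP/GFP for 6 of the 7 genes, where 59.2% of the genes tested were higher, but for 2 of the 7 with 6 libraries, and the median log2 fold change was -0.20 against 0.09 for all genes tested. At an unadjusted p under 0.05, which 4.37% of all genes reached, 1 of the 7 genes was found, Lamp3. Lamp3 was also the only member whose groups did not overlap (lower in Wfdc2GFP/GFP, as for 9.46% of the genes tested).

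Lamp3 measured 3.17 and 3.33 log2 RPKM in E18.5 Wfdc2+/+ and 2.38 and 2.43 in E18.5 Wfdc2GFP/GFP. Per kilobase of exon these are 150 ± 12.0 RPKM (SD, n = 2) and 83.5 ± 1.86 RPKM. The difference was -0.85 ± 0.26 (95% interval -1.46 to -0.24, unadjusted p = 0.0125, adjusted p = 0.787). Within the same replicate number it was -0.79 and -0.91, and over the alternatives, with the fits that left out libraries among them, it lay between -1.06 and -0.74. The library that stood apart, replicate 1 of E18.5 Wfdc2GFP/GFP, was within 0.05 of replicate 2 for this gene, and without it the difference was -0.82.

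For the other members except Abca3 that library was the lowest of the 4 at E18.5. Sftpb measured 7.18 and 7.52 log2 RPKM in the controls and 6.44 and 7.87 in the knockouts, and Sftpc measured 12.15 and 12.36 against 11.00 and 12.51. In both genes the controls lay between the 2 knockout libraries, with differences of -0.20 ± 0.63 and -0.49 ± 0.75. Napsa had the same layout, 4.33 and 4.61 in the controls and 3.76 and 4.98 in the knockouts. Abca3 measured 2.77 and 3.11 in the controls and 2.91 and 3.01 in the knockouts, a difference of 0.02 ± 0.29. Slc34a2 (5.28 and 5.51 against 4.85 and 5.34) and Lpcat1 (3.57 and 3.72 against 3.28 and 3.68) overlapped as well. The adjusted p was 0.999754 for each of these 6 genes, and without the replicate 1 library the differences of Sftpb, Sftpc, Napsa and Lpcat1 changed sign, to 0.52, 0.26, 0.51 and 0.035, while those of Slc34a2 and Abca3 were -0.061 and 0.074.

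**Figure D2:**
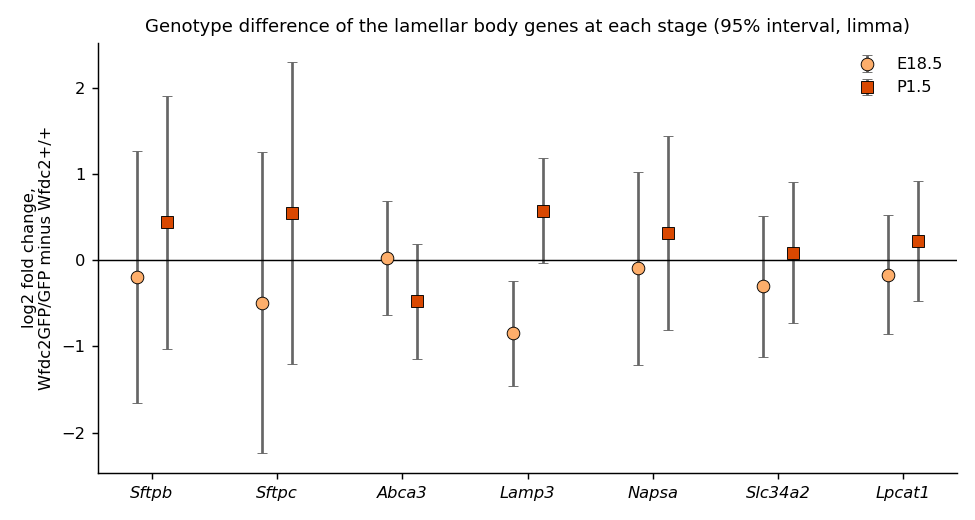
The y axis gives the log2 fold change of Wfdc2GFP/GFP minus Wfdc2+/+ and the x axis the 7 genes, with circles for E18.5, squares for P1.5 and bars for the 95% interval of limma over all 8 libraries. The interval of Lamp3 at E18.5 (-1.46 to -0.24) is the only one that leaves out 0, and the points of Lamp3 lie on opposite sides of 0 at the 2 stages.

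The genotype difference of Lamp3 was thus negative at E18.5 and positive at P1.5, and every library followed that layout, which 1.56% of the genes tested shared. Lamp3 was not alone in this among type II genes, since Lyz1, Lyz2, Chil1 and Cxcl15 of the 10 type II markers outside the set, and Krt8 of the pan-epithelial genes, had the same layout. The change in the difference, tested as genotype by stage, was 1.42 ± 0.37 (95% interval 0.56 to 2.28, unadjusted p = 0.00536), and the adjusted p of 0.271 did not pass. No gene of 15627 was called in this test, with 10.2% at an unadjusted p under 0.05, no gene called by voom, and 1 of the 7 members, Lamp3, at that unadjusted p. The other 6 members had interaction terms from -0.50 (Abca3) to 1.04 (Sftpc) with adjusted p between 0.734 and 0.872. In the fit of 6 libraries the terms of Sftpc and Napsa turned to -0.30 and -0.60. There 4 of the 7 members had a positive term, against 6 with all 8 libraries. With 6 libraries the term of Lamp3 was again 1.42, with an adjusted p of 0.0985, where 3 genes (0.0192%) were called in all. Over the alternatives it lay between 0.80 and 1.83 with adjusted p between 0.0985 and 0.987. The 10 type II markers outside the set had positive terms in 10 of 10, as had 35.6% of all genes, with a median of 1.69 and a highest value of 4.18 (Chil1), and 5 of them were at an unadjusted p under 0.05 and positive, as were 2.18% of all genes. For Chil1, replicate 1 of E18.5 Wfdc2GFP/GFP measured 0.88 log2 RPKM and replicate 2 measured 5.44. With 6 libraries 8 of the 10 were positive, with a median of 1.37, so the term of Lamp3 lay near the middle of that list. Positive terms were also frequent among pan-epithelial (9 of 9, median 0.47), macrophage and leukocyte (7 of 8, 0.84), type I (7 of 9, 0.73) and endothelial genes (6 of 8, 0.36). They were rarer among mesenchymal (2 of 8), ciliated (2 of 8), proliferation (1 of 6) and liver genes (0 of 5). With 6 libraries 3 of 9 pan-epithelial, 6 of 8 mesenchymal and 6 of 6 proliferation genes were positive.

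Birth separates the 2 stages, and the stage comparison asked how the 7 genes stood before and after it. Over both genotypes Sftpc was 1.75 ± 0.53 higher at P1.5 on the log2 scale, a 3.36-fold difference, and all 4 libraries of P1.5 lay above all 4 of E18.5, as for 7.28% of the genes tested. Quantile normalization, which gives the top gene of each library 1 common value, sets this difference and every other of Sftpc to 0 by construction. Napsa was 1.02 ± 0.34 higher and Abca3 was -0.58 ± 0.20 lower. The adjusted p-values of limma were 0.0672 for Sftpc, 0.0779 for Napsa and 0.0838 for Abca3, and no member was called, where 803 genes (5.14%) were, nor by voom, which called 4.38%. At an adjusted p under 0.1 these 3 were called, beside 31.7% of the genes tested. At an unadjusted p under 0.05, reached by 39% of the genes tested, these 3 members were found. The differences of Lamp3 (-0.37 ± 0.19), Lpcat1 (-0.22 ± 0.21), Sftpb (-0.08 ± 0.45) and Slc34a2 (-0.06 ± 0.25) were smaller, with adjusted p from 0.172 to 0.896, and turned positive with the median gene of every library set equal (a shift of -0.48 to 0.51 between libraries). The median over the 7 genes was -0.08 against -0.32 for all genes.

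Share of reads shows the size of the Sftpc difference. Sftpc took 1.43% and 1.65% of the reads in E18.5 Wfdc2+/+, 0.644% and 1.84% in E18.5 Wfdc2GFP/GFP, 5.37% and 2.40% in P1.5 Wfdc2+/+, and 6.23% and 4.41% in P1.5 Wfdc2GFP/GFP. The exact 95% binomial interval of the lowest share, 0.642% to 0.647%, covers counting error only and was far narrower than the difference between replicates. Of the reads of the 7 genes together, Sftpc made up 67.7% to 78.1% at E18.5, 83.1% in replicate 2 of P1.5 Wfdc2+/+ and 90.9% to 94.3% in the other 3 P1.5 libraries. Per kilobase of exon the ratio of Sftpc to Sftpb was 23.3 and 21.2 in E18.5 Wfdc2+/+ and 17.6 and 18.6 in E18.5 Wfdc2GFP/GFP. At P1.5 it was 180 and 26.1 in Wfdc2+/+ and 85.4 and 64.3 in Wfdc2GFP/GFP. Every ratio at P1.5 exceeded every ratio at E18.5, but the ratio of replicate 2 of P1.5 Wfdc2+/+ was close to those at E18.5. The E18.5 ratio held also in replicate 1 of E18.5 Wfdc2GFP/GFP, where the reads of both genes were low.

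**Figure D3:**
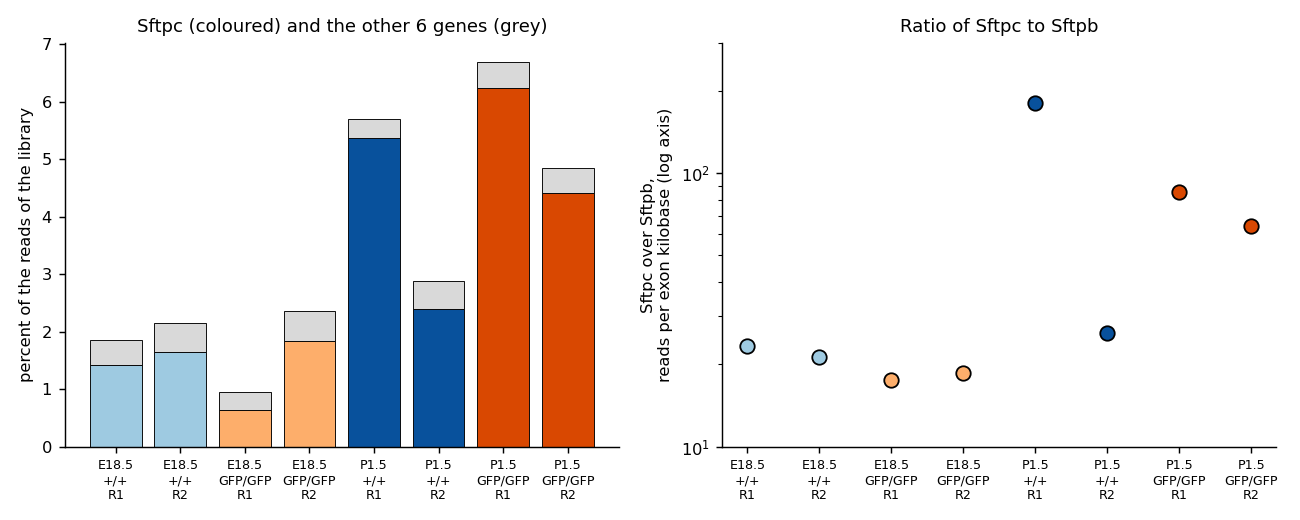
The left panel gives the percent of the reads of each library (y axis) that fell on Sftpc (coloured) and on the other 6 genes (grey), and the right panel gives the ratio of Sftpc to Sftpb per kilobase of exon on a log axis, with 1 bar or point for each of the 8 libraries on the x axis. Sftpc takes 0.644% to 1.84% at E18.5 and 2.40% to 6.23% at P1.5, and the ratio goes from 17.6 to 23.3 at E18.5 to 26.1 to 180 at P1.5.

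The stage difference was then taken within each genotype, and both comparisons share their libraries with the genotype comparisons above. In Wfdc2+/+ no member was called (9 genes were, 0.0576%), and voom called no gene. Lamp3 was -1.08 ± 0.26 lower at P1.5 (unadjusted p = 0.00356, adjusted p = 0.206), the only member at an unadjusted p under 0.05, which 11.8% of all genes reached. Lamp3 and Lpcat1 (-0.42 ± 0.30) were lower without overlap, as were 28.2% of the genes tested, and Sftpc (1.23 ± 0.75) and Napsa (0.82 ± 0.48) were higher without overlap, as were 27.4%. In Wfdc2GFP/GFP no member was called either, beside 711 genes (4.55%), and voom called none of the 7 among its 129 genes (0.825%). Sftpc was 2.27 ± 0.75 higher (adjusted p = 0.0845), Abca3 -0.83 ± 0.29 lower (adjusted p = 0.0902) and Napsa 1.23 ± 0.48 higher (adjusted p = 0.117), the first pair under 0.1 as were 25.7% of the genes tested, and all 3 at an unadjusted p under 0.05, as were 35.6% of all genes. Lamp3 was 0.34 ± 0.26 higher in Wfdc2GFP/GFP (adjusted p = 0.374), against the lower value in the controls, but -0.45 lower when centred on the pan-epithelial genes. Sftpc, Napsa and Lamp3 were higher without overlap (18.7% of all genes) and Abca3 was lower (48.5%).

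Between libraries of the same replicate number the stage difference kept its sign for 6 of the 7 genes in Wfdc2+/+ and for 5 of 7 in Wfdc2GFP/GFP. Sftpc was higher by 1.91 in replicate 1 and 0.54 in replicate 2 of the controls, and by 3.27 and 1.26 in the knockouts. Abca3 was lower by -0.33 and -0.32 in the controls and by -0.75 and -0.91 in the knockouts. Sftpb changed sign in both genotypes, from -1.04 to 0.24 in the controls and from 0.99 to -0.53 in the knockouts.

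The stage calls changed with the libraries used. In the fit of 6 libraries 4 of the 7 genes were called over both genotypes, beside 7459 of all genes (47.7%). Sftpc (1.66, adjusted p = 0.00448) and Napsa (0.92, adjusted p = 0.0203) rose, and Sftpb (-0.85, adjusted p = 0.0095) and Abca3 (-0.69, adjusted p = 0.0210) fell. For Sftpb the libraries left in that fit include the highest of the 8 (replicate 2 of E18.5 Wfdc2GFP/GFP) and the lowest (replicate 1 of P1.5 Wfdc2+/+). Leaving out only replicate 2 of P1.5 Wfdc2+/+ gave calls over both genotypes for Sftpc (2.04, adjusted p = 0.0272), Abca3 (-0.67, adjusted p = 0.0283) and Napsa (1.23, adjusted p = 0.0291), beside 45.6% of all genes. Leaving out only replicate 2 of E18.5 Wfdc2GFP/GFP gave calls for Sftpc (2.13, adjusted p = 0.0242) and Napsa (1.33, adjusted p = 0.0322), beside 20.2%. Sftpc was called over both genotypes (adjusted p = 0.0400) also when only genes whose mean reached 0.5 RPKM were tested, where 17.9% were. In Wfdc2+/+ alone, 6 libraries gave 4 calls among the members, Sftpb (-1.21), Sftpc (1.81), Lamp3 (-1.11) and Napsa (1.22), with adjusted p from 0.00972 to 0.0299, beside 37.8% of all genes. Lamp3 was also called there (-1.11, adjusted p = 0.0462, beside 13.9%) without replicate 2 of P1.5 Wfdc2+/+ alone. In Wfdc2GFP/GFP they gave 1, Sftpc (1.51, adjusted p = 0.0266), beside 17.6%. Without replicate 2 of E18.5 Wfdc2GFP/GFP alone Sftpc (3.02, adjusted p = 0.0334) and Napsa (1.84, adjusted p = 0.0460) were called in that genotype, beside 15.7%. Without replicate 1 of that group alone, which stood apart, no member was called over both genotypes, beside 0.454% of all genes.

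**Figure D4:**
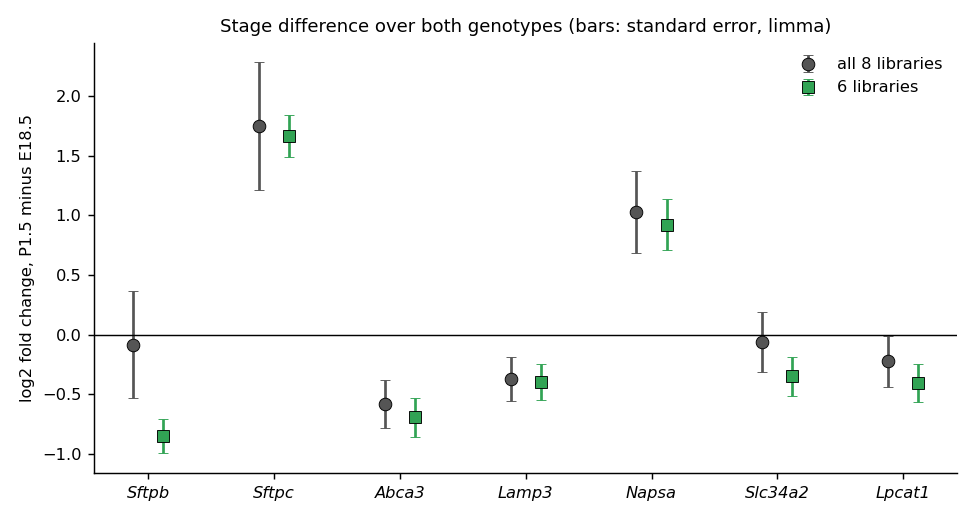
The y axis gives the log2 fold change of P1.5 minus E18.5 over both genotypes and the x axis the 7 genes, with circles for all 8 libraries, squares for the 6 libraries left without the pair that stood apart, and bars for the standard error of limma. Sftpc (1.75 and 1.66) and Napsa (1.02 and 0.92) are above 0 and Abca3 (-0.58 and -0.69) below it in both fits, while Sftpb moves from -0.08 to -0.85.

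The 7 genes did not vary as one unit over the 8 libraries. Of their 21 pairs, 13 had a Pearson correlation above 0, with a median of 0.15 and a range from -0.80 to 0.98, given as a description of 8 libraries that share stages, genotypes and scaling. Sftpc and Napsa ran together (0.98), and so did Sftpb with Slc34a2 (0.86) and with Lpcat1 (0.76). Abca3 ran against Sftpc (-0.80) and Napsa (-0.71). Lamp3 had its best partner in Lpcat1 (0.62). The range from the lowest to the highest library was 9.67-fold for Sftpc, 4.42-fold for Napsa, 3.32-fold for Sftpb, 2.28-fold for Lamp3, 2.01-fold for Abca3, 1.63-fold for Slc34a2 and 1.58-fold for Lpcat1. The genes differed as much in how well replicates agreed, since the SD within a group was 0.03 to 0.12 for Lamp3, 0.06 to 1.15 for Sftpb and 0.15 to 1.07 for Sftpc. Outside the set, the 5 genes whose log2 RPKM went most with the mean of the 7 were Slc25a39, Tmem66, 4930572J05Rik, Gsn and Cxx1b (r from 0.97 to 0.98 over 8 libraries, out of 7057 genes whose mean reached 1 RPKM).

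Markers of the cells in the tissue were set beside these values. The fewest reads of any marker in any library were 181 for the type II list (S100g), 380 for the type I list (Aqp5) and 446 for the pan-epithelial list (Elf3), so none of them was absent from a library. The 10 type II markers outside the set were higher in Wfdc2GFP/GFP at P1.5 in 10 of 10, with a median log2 fold change of 0.62, none called, and 6 without overlap, where 38.8% of all genes tested had a higher mean and 12.6% were higher without overlap. In the fit of 6 libraries 9 of the 10 were higher and 5 were called, Egfl6, Lyz1, Chil1, Cxcl15 and Lyz2 (1.04 to 1.91, adjusted p from 0.0306 to 0.0436), beside 4.34% of all genes. Their summed level was 3721 and 4711 RPM (reads scaled by the library total alone, with no length) in P1.5 Wfdc2+/+ and 8525 and 8651 in P1.5 Wfdc2GFP/GFP, with Lyz1 the most abundant gene in 3 of these libraries and Cxcl15 in replicate 2 of Wfdc2+/+. At E18.5 the sums were 4341 and 4813 RPM in Wfdc2+/+ and 1433 and 4013 in Wfdc2GFP/GFP, led by Cxcl15 in all 4, and 8 of the 10 were lower in the knockouts (median -0.997, none called). Other lists were lower there too, 9 of 9 type I, 6 of 6 club, 8 of 8 ciliated, 7 of 8 endothelial, 7 of 8 macrophage and leukocyte and 5 of 5 erythroid genes, while 6 of 6 cardiac muscle and 6 of 6 proliferation genes were higher. Without replicate 1 of E18.5 Wfdc2GFP/GFP, 1 of 9 type I, 3 of 6 club, 4 of 8 ciliated, 5 of 8 endothelial, 1 of 8 macrophage and leukocyte and 0 of 5 erythroid genes were higher. So were 6 of 6 cardiac muscle and 3 of 6 proliferation genes. At P1.5 other lists had higher means in the knockouts too, 6 of 6 cardiac muscle (median 0.67), 7 of 9 pan-epithelial (0.44) and 7 of 8 endothelial genes (0.19). Lower there were 5 of 5 liver, 7 of 8 ciliated and 6 of 8 mesenchymal genes. With 6 libraries 2 of 5 liver and 6 of 8 mesenchymal genes were higher at P1.5. The largest differences of the type II list were those of S100g (2.03), a calcium-binding protein, Lyz1 (1.76), a lysozyme, and Chil1 (1.61), a chitinase-like protein, at P1.5, and of Chil1 (-2.57) and Lyz1 (-2.27) at E18.5. Without replicate 2 of P1.5 Wfdc2+/+ the first 3 were 1.15, 1.70 and 1.62. Without replicate 1 of E18.5 Wfdc2GFP/GFP those of Chil1 and Lyz1 at E18.5 were -0.29 and -0.65, and 6 of the 10 markers were higher in the knockout. Lyz2 of this list is also a macrophage gene. The part of type II cell number or maturity, or of other cells, in the values of the 7 genes was not tested.

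Other cell types moved between libraries too. The mean of the 9 pan-epithelial genes was 3.98 and 4.15 log2 RPKM in E18.5 Wfdc2+/+, 3.65 and 4.28 in E18.5 Wfdc2GFP/GFP, 4.77 and 3.69 in P1.5 Wfdc2+/+, and 4.70 and 4.80 in P1.5 Wfdc2GFP/GFP. The 8 mesenchymal genes ran between 4.56 and 4.78 at E18.5 and stood at 2.80 and 4.79 in P1.5 Wfdc2+/+ and at 3.22 and 3.65 in P1.5 Wfdc2GFP/GFP. The 6 proliferation genes stood at 2.96 and 2.46, 3.81 and 2.68, 0.49 and 2.45, and 0.97 and 1.74 in the same order of groups. Replicate 2 of P1.5 Wfdc2+/+ was therefore at the level of the E18.5 libraries in all 3 lists, and replicate 1 of E18.5 Wfdc2GFP/GFP had the lowest epithelial and the highest proliferation value of the libraries. Other lists set replicate 2 of P1.5 Wfdc2+/+ above all E18.5 libraries. Its macrophage and leukocyte mean was 2.39, against 0.29 to 1.11 at E18.5, and its club mean 6.97, against 4.28 to 6.41. The 5 liver genes summed to 86.1 RPM in replicate 2 of P1.5 Wfdc2+/+, led by Alb, against 1.15 to 7.64 RPM elsewhere. Centred on the pan-epithelial genes, Sftpc was called over both genotypes (1.27, adjusted p = 0.00623, beside 2.2% of all genes) and in Wfdc2GFP/GFP (1.48, adjusted p = 0.0214, beside 2.28%), and no other member was.

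**Figure D5:**
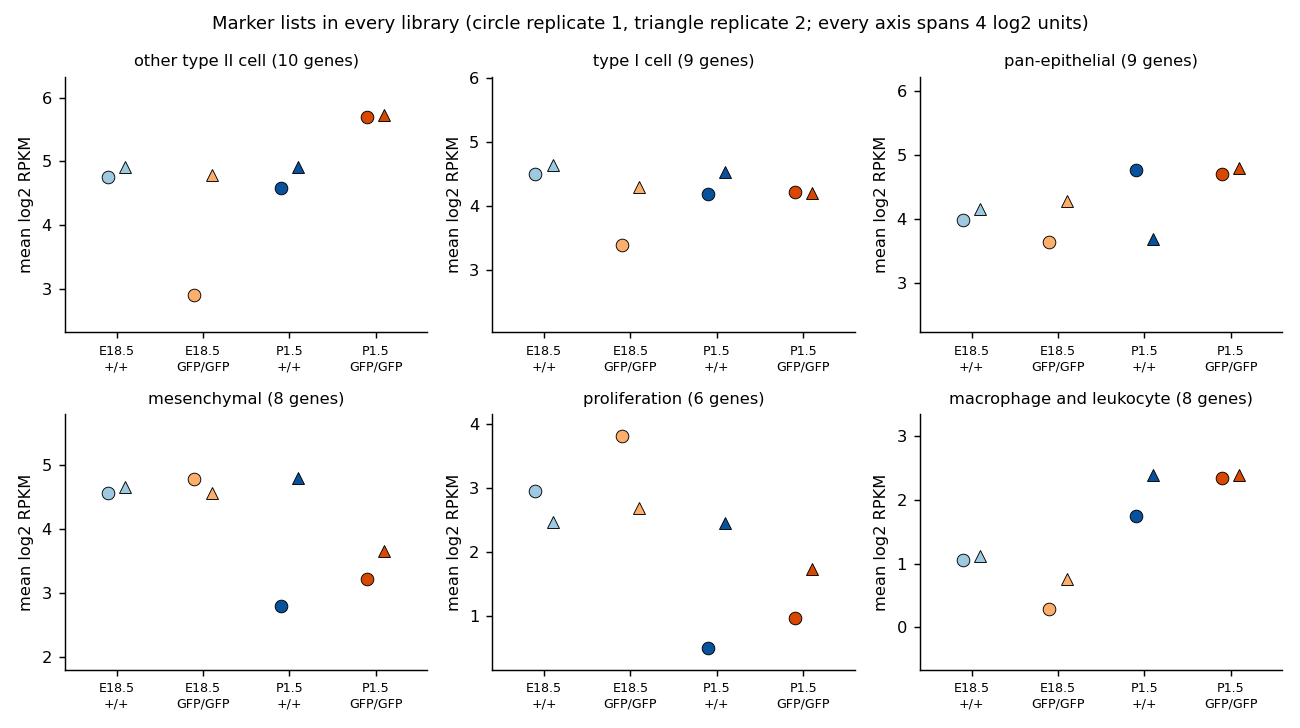
Each panel plots the mean log2 RPKM (y axis) of 1 list of marker genes in the 4 groups (x axis), with replicate 1 as a circle and replicate 2 as a triangle, on axes that span the same log2 range. Replicate 2 of P1.5 Wfdc2+/+ lies with the E18.5 libraries for the mesenchymal (4.79) and proliferation (2.45) lists, and replicate 1 of E18.5 Wfdc2GFP/GFP is the lowest library for the type II (2.91) and type I (3.40) lists.

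Other genes of the pathway came from lists that were set with earlier results of these data known. Among 14 further genes of surfactant proteins, lamellar body biogenesis and trafficking, none was called for genotype at P1.5, with 7 higher and 7 lower in Wfdc2GFP/GFP and a median of -0.07. The largest differences were those of the collectins Sftpd (1.92) and Sftpa1 (1.73), the purinergic receptor gene P2ry2 (1.57), whose product triggers surfactant secretion, and Cd63 (1.18), a tetraspanin of lysosomes. With 6 libraries Sftpa1 (2.21, adjusted p = 0.0255), Sftpd (1.73, adjusted p = 0.0306) and P2ry2 (1.95, adjusted p = 0.0395) were called, beside 4.34% of all genes, and Cd63 (0.96) was not. At E18.5 none was called (median -0.06), and Sftpd (-1.36) and Sftpa1 (-0.63) had the largest differences, followed by the biogenesis gene Hps4 (0.60) and the lipid flippase gene Atp8a1 (0.40). Without replicate 1 of E18.5 Wfdc2GFP/GFP these were -0.11, -0.014, 0.64 and -0.072, so that only Hps4 of the 4 kept its size, and 6 of the 14 genes changed sign. Over both genotypes 2 of the 14 were called higher at P1.5 than at E18.5 and none lower, beside 2.58% and 2.56% of all genes. The 2 were Sftpd (2.89 ± 0.49, adjusted p = 0.0304) and Cd63 (1.22 ± 0.27, adjusted p = 0.0477). Sftpd measured 4.57, 4.80, 2.08 and 4.57 log2 RPKM in the 4 libraries of E18.5 and 6.13, 5.75, 7.85 and 7.86 in those of P1.5, with no overlap. Over all genes tested, 37.3% had a higher mean at P1.5. Lyst (-2.26, adjusted p = 0.0510), a regulator of lysosome size, and Sftpa1 (1.32, adjusted p = 0.0590) stayed above the threshold. The hydrophilic Sftpd was thus called for stage where Sftpb and Sftpc were not, and whether these genes differ in their stage difference was not tested.

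Beside 0.0128% of all genes at P1.5 and 0.0192% at E18.5, none of the 16 genes of surfactant phospholipid synthesis was called for genotype. Their largest differences were, at P1.5, Lpin1 (-2.11), a phosphatidate phosphatase, the acyltransferase gene Gpam (-1.47), the desaturase gene Scd1 (0.999) and Cept1 (-0.75), and at E18.5 Scd1 (-1.90), the choline kinases Chka (1.21) and Chkb (1.04) and Lpin1 (0.79). Scd1 measured 5.94 and 5.95 log2 RPKM in the E18.5 controls and 2.15 and 5.95 in the knockouts, and without the low library, replicate 1, its difference was 0.0019. Those of Chka, Chkb and Lpin1 were then 0.88, 1.34 and 0.81, and 7 of the 16 genes changed sign. At P1.5 the fit of 6 libraries gave -2.92 for Lpin1 (adjusted p = 0.0329), the only one of the 16 called, -0.81 for Gpam, 0.77 for Scd1 and -0.42 for Cept1. Over both genotypes 3 of the 16 were called lower after birth and none higher, beside 2.56% and 2.58% of all genes. By their means 12 of 16 were lower, with a median of -0.66 against -0.32 for all genes. Scd2, a desaturase, fell by 2.35 on the log2 scale (SE 0.25, adjusted p = 0.00906), Gpam by 3.09 (SE 0.48, adjusted p = 0.0250) and Acly, which makes cytosolic acetyl-CoA, by 1.10 (SE 0.23, adjusted p = 0.0422). Scd2 measured 6.85, 6.88, 6.22 and 6.96 log2 RPKM at E18.5 and 4.54, 4.64, 3.89 and 4.47 at P1.5. All 4 libraries of P1.5 were below all of E18.5, also replicate 2 of Wfdc2+/+, as for 13.7% of the genes tested. The fatty acid synthase gene Fasn had -1.09 with an adjusted p of 0.0510.

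Among 12 regulators of type II cell genes none was called for genotype, with Foxa1 (-0.81), Gata6 (-0.81), Stat3 (0.68) and Srebf2 (0.49) the largest differences at P1.5 and Sox9 (0.91), Nkx2-1 (0.48), Id2 (-0.44) and Cebpa (-0.25) at E18.5. With 6 libraries, where none was called for genotype, these were -0.53, -0.31, 0.64 and 0.81 at P1.5 and 0.57, 0.50, -0.42 and 0.20 at E18.5. Over both genotypes 2 of the 12 were called lower after birth and none higher, beside 2.56% and 2.58% of all genes. By their means 9 of the 12 were lower and 3 higher. The 2 called were Sox9 (-1.90 ± 0.32, adjusted p = 0.0289), a marker of distal lung progenitors, and Foxa1 (-1.19 ± 0.23, adjusted p = 0.0380), a forkhead factor. Nr3c1, the glucocorticoid receptor gene, had -1.25 with an adjusted p of 0.0866 and Etv5 had -1.14 with an adjusted p of 0.0641. Foxa1 measured 2.84, 2.96, 2.90 and 3.09 log2 RPKM at E18.5 and 1.88, 2.45, 1.11 and 1.59 at P1.5, without overlap. Of the type II markers outside the set, S100g rose (3.53 ± 0.66, adjusted p = 0.0358) and no other was called. In the 20 alternatives these 8 called genes of the 4 lists kept the sign of their stage difference, and they passed the test in between 8 of them (Cd63) and 18 (Scd2). None of the 8 passed without replicate 1 of E18.5 Wfdc2+/+ or without replicate 1 of P1.5 Wfdc2GFP/GFP, where 0.198% and 0.179% of all genes were called. In the fit of 6 libraries, where 47.7% were called, 9 of the 14 trafficking genes (3 higher and 6 lower), 10 of the 16 phospholipid genes (2 higher and 8 lower), 7 of the 12 regulators (all lower) and 7 of the 10 type II markers (5 higher and 2 lower) passed.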

How the data were processed

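Lung RNA-seq of 4 groups of 2 libraries was used. Per the submitters' processing notes and the study's methods, the authors removed the ends of long reads, trimmed with Trim Galore 0.4.0, mapped to mm10 with TopHat2 2.1.1 guided by mRNA coordinates and counted in SeqMonk; CASAVA 1.8 is also named. The authors deposited log2 RPKM per gene and library. The values show that length was the whole gene span, introns included, and that genes with no read were entered at 0.9 read, so spliced genes with long introns have low RPKM and levels were compared between genes per kilobase of exon (GENCODE M21). Reads were recovered from the steps of each library, with 99.86% to 99.96% of values within 0.02 of a whole number.

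Groups came from the labels. The 15627 genes whose mean reached 0.05 RPKM, all 7 members among them, were fitted without pseudocount in limma 3.58.1 (R 4.3.3), with 1 mean per group over all 8 libraries, 4 residual degrees of freedom, a trend in the prior and Benjamini-Hochberg adjustment over all genes. The test was two-sided with a threshold of 0.05. Contrasts were genotype at each stage, stage in each genotype and over both, and genotype by stage. Alternatives are named in the closing section. Deviations of same-numbered libraries from their group means correlated at 0.23 between the E18.5 groups and 0.21 between the P1.5 groups, and at -0.29 to 0.08 between stages, so no block was used.

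The members and lists were chosen with earlier results of these data known. Named were the members, up to 4 genes of each pathway list with the largest change in a contrast, Wfdc2, Xist and Ddx3y as checks, and the 5 genes most like the mean of the members. Eef1a1, Lyz1, S100g, Chil1, Cxcl15, Lyz2, Egfl6, Krt8, Aqp5, Elf3, Alb and Fasn fall outside this rule in a list or contrast and were chosen after their values were seen. Of 138 listed genes 136 were tested, 5 of them found under an older symbol. Lists of endothelial, club, ciliated, erythroid and cardiac genes were measured too. On simulated data, where 200 of 15627 genes had a log2 change of 5 at P1.5, the fit found 188 and 192 at dispersions of 0.01 and 0.1, with 17 false calls each time. Changes as small as those of the members, and libraries that stand apart, were not simulated. The share found therefore says nothing about how often such small changes would be called. Tables and figures used pandas 2.3.3, numpy 2.4.6, scipy 1.17.1 and matplotlib 3.10.9 in Python 3.11.15.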

Additional observations from a re-analysis of the deposited data

Results flagged for a closer look

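Lamp3 was singled out because both libraries of Wfdc2GFP/GFP lay below both of Wfdc2+/+ at E18.5 and above both at P1.5, so that the genotype difference (-0.85 at E18.5 and 0.57 at P1.5, log2) had opposite signs at the 2 stages. For the same reason its stage difference had opposite signs in the 2 genotypes (-1.08 in Wfdc2+/+ and 0.34 in Wfdc2GFP/GFP), though with the libraries centred on the pan-epithelial genes the latter was -0.45 and the signs were the same. These are 1 contrast seen from either side, and the test of it gave 1.42 with an unadjusted p of 0.00536 and an adjusted p of 0.271 (limma, 8 libraries), which does not pass. Lamp3 was not alone in this, since Lyz1, Lyz2, Chil1 and Cxcl15 of the 10 type II markers outside the set, Krt8 and 1.56% of all genes tested had the same layout, and the median of the 10 markers in this test was 1.69. The sign of the test for Lamp3 held in every alternative run, with values from 0.80 to 1.83.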

How the results depend on the processing

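With all 8 libraries no alternative scaling, filter, pseudocount or tool gave a call for genotype or for genotype by stage in any of the 7 genes, and Lamp3 kept the sign of its genotype difference at both stages and of its interaction throughout. Calls among the members appeared for stage. Of the values recomputed, 786 for single genes or medians and 138 counts of calls kept their direction and side of the threshold or stayed near the reported value, while 90 counts and 18 other values moved, 63 values changed sign and 21 came to pass the threshold. Where a result changed, the cause was not tested, except that fits of fewer libraries have fewer degrees of freedom and that the filter and the threshold act by construction. For the 7 genes the number of libraries limits the values and depth does not, while depth limits genes with few reads, such as Apoa1 and others of the liver list, which had 1 to 3 of its 5 genes at or under 3 reads in 7 of the 8 libraries.

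Genes called for genotype at P1.5 and at E18.5 were 11 and 6 with a pseudocount of 0.1 RPKM, 21 and 22 without a filter, 0 and 0 with median centring, with quantile normalization and with voom, 0 and 1 with the groups compared alone, 5 and 8 with a prior without a trend, and 7 and 5 at an adjusted p under 0.1. A pseudocount of 1 RPKM gave 5 at P1.5, and a mean of at least 0.5 RPKM gave 1 at E18.5. Centred on the pan-epithelial genes, 7 and 1 genes were called for genotype at P1.5 and at E18.5, and 19, 357 and 344 for stage in Wfdc2+/+, in Wfdc2GFP/GFP and over both. For stage in Wfdc2+/+, Wfdc2GFP/GFP and both, the counts were 17, 237 and 461 with a pseudocount of 1 RPKM, 35, 349 and 428 without a filter, 5, 1279 and 1842 with median centring and 97, 4009 and 4956 at an adjusted p under 0.1. In Wfdc2+/+ alone 16 genes were called with a pseudocount of 0.1 RPKM, 52 with a mean of at least 0.5 RPKM, 49 with quantile normalization, and 0 with the groups alone and with voom. Wfdc2GFP/GFP gave 3036 with the groups alone and 129 with voom. Over both genotypes the counts were 1684 with the stricter filter, 1278 with quantile normalization, 1258 with the total taken without the 20 most abundant genes and 527 without a trend. Among the members, 1 was called over both genotypes with the stricter filter, 1 in Wfdc2GFP/GFP and 1 over both genotypes when centred on the pan-epithelial genes, and 2 and 3 at an adjusted p under 0.1.

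With the replicate block, 0, 0 and 0 genes were called for genotype after birth, genotype before it and stage in Wfdc2+/+, 125 for stage in Wfdc2GFP/GFP and 287 over both genotypes, and with the replicate block within stage 9 and 1 for genotype at P1.5 and E18.5. No member was called in either. In the replicate block Cd63 (limma, adjusted p = 0.0677), Acly (0.0610) and S100g (0.0554) did not pass for stage over both genotypes. Nor did Cav1 (0.0611), Tppp3 (0.0657) and Pdgfra (0.0616), all at unchanged log2 differences. The other listed genes called for that contrast still passed. The interaction of Lamp3 was 1.42 with adjusted p of 0.315 and 0.175 in these blocked fits. No source used here says that the numbers pair the libraries, though same-numbered libraries match in their sex-linked RNAs and their deviations correlated at 0.23 and 0.21 within a stage.

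Signs changed as follows. Median centring gave -0.19 for Abca3 at E18.5, 0.0101 for Slc34a2 in Wfdc2+/+ over stage, 0.65 for Lpcat1 in Wfdc2GFP/GFP, and 0.39, 0.10, 0.41 and 0.25 for Sftpb, Lamp3, Slc34a2 and Lpcat1 over both genotypes. Quantile normalization gave -0.19 for Slc34a2 at P1.5, -0.064 for Abca3 at E18.5, and -0.65 and -0.47 for Sftpb and Slc34a2 over stage in Wfdc2GFP/GFP. The total without the 20 most abundant genes gave -0.00171 for Abca3 at E18.5, 0.079 for Lpcat1 in Wfdc2GFP/GFP and 0.0201 for Slc34a2 over both genotypes. Centring on the pan-epithelial genes gave -0.081, -0.20, -0.43 and -0.29 for Sftpb, Napsa, Slc34a2 and Lpcat1 at P1.5, 0.0063 for Napsa at E18.5, -0.55, -0.45 and -0.65 for Sftpb, Lamp3 and Slc34a2 over stage in Wfdc2GFP/GFP, and interactions of -0.21, -0.23 and -0.23 for Napsa, Slc34a2 and Lpcat1.

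Without both libraries that stood apart, chosen after seeing the data, 678, 0, 5904, 2744, 7459 and 3 genes were called for genotype after birth and before it, stage in Wfdc2+/+, stage in Wfdc2GFP/GFP, stage over both and the interaction, and 1, 0, 4, 1, 4 and 0 of the members. Sftpc and Napsa were then -0.035 and -0.088 at P1.5. At E18.5 Sftpb, Sftpc, Napsa and Lpcat1 were 0.52, 0.26, 0.51 and 0.035. Over stage in Wfdc2GFP/GFP Sftpb and Slc34a2 were -0.48 and -0.11, and the interactions of Sftpc and Napsa were -0.30 and -0.60.

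With 1 library left out at a time, a lone library being taken to vary like the other groups, the genes called ranged from 1 to 24 for genotype at P1.5, 0 to 1 at E18.5, 0 to 2166 for stage in Wfdc2+/+, 0 to 2449 in Wfdc2GFP/GFP, 28 to 7125 over both and 0 to 2 for the interaction. Members called ranged from 0 to 1, 0 to 2 and 0 to 3 for stage in Wfdc2+/+, in Wfdc2GFP/GFP and over both. At P1.5 the ranges that crossed 0 were -0.38 to 1.25 for Sftpb, -0.035 to 1.13 for Sftpc, -0.088 to 0.71 for Napsa and -0.25 to 0.41 for Slc34a2. At E18.5 they were -0.91 to 0.52 for Sftpb, -1.25 to 0.26 for Sftpc, -0.15 to 0.19 for Abca3, -0.70 to 0.51 for Napsa and -0.37 to 0.035 for Lpcat1. Over stage they were -1.21 to 0.41 for Sftpb and -0.59 to 0.076 for Slc34a2 in Wfdc2+/+, -0.48 to 0.95, -0.11 to 0.37 and -0.23 to 0.17 for Sftpb, Slc34a2 and Lpcat1 in Wfdc2GFP/GFP, and -0.49 to 0.32 and -0.23 to 0.10 for Sftpb and Slc34a2 over both. Interactions ranged from -0.18 to 1.45 for Sftpb and -0.20 to 1.02 for Napsa.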

Other observations

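Genes of other lung cell types were called for stage over both genotypes, and with all 8 libraries none of the listed genes was called for genotype at either stage. Over both genotypes the neutrophil genes S100a8 (4.05 ± 0.46 on the log2 scale, adjusted p = 0.0108) and S100a9 (4.23 ± 0.36, adjusted p = 0.00616) rose from E18.5 to P1.5, 2 of 8 macrophage and leukocyte genes called with 6 of 8 higher, where limma called 5.14% of all genes. The genes named here were picked from the lists after their values were seen. Scgb1a1, the secretoglobin of club cells, rose by 4.29 ± 0.76 (adjusted p = 0.0330), 1 of 6 club genes called with 5 of 6 higher, and Tppp3 of ciliated cells 4.29-fold (adjusted p = 0.0446), 1 of 8 with 5 of 8 higher. Cav1, the caveolin of type I cells, fell by 1.10 (SE 0.23, adjusted p = 0.0431), 1 of 9 type I genes with 6 of 9 lower, while Aqp5 (2.76, adjusted p = 0.0520) and Ager (1.59, adjusted p = 0.0637) of that list had positive differences without overlap, and Pdgfra of mesenchymal cells fell by 1.57 (SE 0.32, adjusted p = 0.0425), 1 of 8 with all 8 lower. Apoa1 of the liver list rose (adjusted p = 0.0149), 1 of 5 with 5 of 5 higher, but it had 3, 6, 1 and 4 reads in the E18.5 libraries and 139, 213, 14 and 10 at P1.5, and its log2 change went from 4.46 as deposited to 3.01 with a pseudocount of 0.1 RPKM and 1.30 with 1 RPKM. No endothelial (8), erythroid (5 found), cardiac muscle (6), proliferation (6) or pan-epithelial (9) gene was called. In the 20 alternatives these signs held, and the adjusted p reached 0.159 for Pdgfra, 0.175 for Cav1, 0.159 for Tppp3, 0.117 for Scgb1a1, 0.0648 for Apoa1, 0.0553 for S100a8 and 0.0496 for S100a9. In the fit of 6 libraries, where 4.34% of all genes were called for genotype at P1.5, Mfap4 (2.47, adjusted p = 0.0223) and Pdgfrb (1.58, adjusted p = 0.0439) of the mesenchymal list were higher in Wfdc2GFP/GFP, with 6 of 8 higher, although 6 of 8 were lower with all 8 libraries. Tie1 of the endothelial list was higher (1.12, adjusted p = 0.0457), with 7 of 8 higher in both fits. Rtkn2 of the type I list was lower (-2.12, adjusted p = 0.0306), while 5 of 9 were higher. Apoa1 was lower (-3.82, adjusted p = 0.0432), with 2 of 5 liver genes higher. Hba-a1 of the erythroid list was higher (1.34, adjusted p = 0.0416), with 4 of 5 higher, but its near-identical copy Hba-a2 had 9841 and 3188 reads in the P1.5 controls and 72 and 111 in the knockouts, so that the split of reads between these copies is uncertain.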
